A study of Mus musculus with 9 samples.

Results

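In natural killer (NK) cells grown without Id2, 12 autosomal genes that were close to silent in every wild-type (WT) culture were expressed in every Id2-null culture. The 12 genes are Arl5c, Tbxa2r, Drc1, Pomgnt2, Lamb1, Cox6a2, Tspan15, Plcd3, Ltk, Trgj1, Sox12 and Tg. They were chosen by level alone, as autosomal genes with less than 2 CPM (the gene's count scaled to a common library total) in all 3 WT cultures and at least 5 CPM in all 3 Id2-null cultures. The files held 27179 genes, of which 23971 were autosomal, 13151 of these were under 2 CPM in all 3 WT cultures and 9084 were at 5 CPM or more in all 3 Id2-null cultures. The thresholds were met by 17 genes on any chromosome, of which 1 was not autosomal and 4 were left out by name. Of the 12 members 11 are protein-coding genes and 1 is a joining segment of the T cell receptor gamma locus, and they lie on 9 chromosomes.

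All libraries were made from total RNA of spleen NK cells of C57BL/6 mice, lymphocytes of the innate immune system that kill infected and transformed cells. There were 3 libraries labelled Id2-null and 3 of WT genotype, each grown for 7 days in interleukin-15 (IL-15), the cytokine that keeps NK cells alive. A further 3 libraries, 1 each, came from WT NK cells named Immature, M1 and M2, which were sorted from spleen and not cultured. How Id2 was deleted, in which cells, which markers defined Immature, M1 and M2, and how many animals were used were not stated in the labels or files used here. The labels give the culture by sample number only, so that the 6 libraries with a replicate number were taken as the cultured ones. Nor do they say whether replicates came from separate mice. A p-value here thus speaks only of the variation among these libraries, and that variation may be technical.

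Id2 belongs to the Id proteins, helix-loop-helix proteins without a DNA-binding region. They pair with E proteins, such as those encoded by Tcf3, Tcf12 and Tcf4, and keep them from binding the short DNA word called the E box. E proteins drive gene programmes of early B and T cells, and innate lymphocytes such as NK cells depend on Id2 for their development.

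The library totals lay between 4476563 and 4628289 counts in the Id2-null cultures, between 4657719 and 4831831 in the WT cultures, and between 4128414 and 4500825 in the sorted libraries. A count of 0 allows a level of up to 0.621 to 0.727 CPM (3 counts, counting error only). Id2 itself was counted at 12.5, 24.4 and 9.82 CPM in the Id2-null cultures, against 420.4, 407 and 402.5 CPM in the WT cultures, so the labels and the targeted gene match. In the sorted libraries Id2 was at 754 CPM in Immature cells, 885 CPM in M1 cells and 1111 CPM in M2 cells. All 10 NK cell markers listed (Ncr1, Klrb1c, Klrk1, Klrd1, Eomes, Tbx21, Il2rb, Gzma, Prf1 and Cd7) were at 5 CPM or more in all 6 cultures, but not all at like levels. Gzma averaged 478 CPM in the Id2-null and 3846 CPM in the WT cultures, Prf1 518 and 1494 CPM, and Cd7 619.5 and 237 CPM. The edgeR test described below called 0 of the 10. At an unadjusted p under 0.05 it gave 1 higher and 3 lower in Id2-null cultures. DESeq2 called 1 higher and 2 lower, limma voom 0 higher and 1 lower, and the replicate block 0 higher and 2 lower. The female-specific RNA Xist was at 671.7 to 956 CPM in the Id2-null cultures and at 0.211 to 1.24 CPM in the WT cultures, and the Y-linked gene Ddx3y was at 0.223 to 0.669 CPM in the Id2-null and at 75.1 to 80.9 CPM in the WT cultures. Genotype and sex of the source mice therefore cannot be told apart in the cultures, for the autosomal genes described here as for any other. The sorted libraries carried both, with Xist at 80.2 to 120.9 CPM and Ddx3y at 32.9 to 43.0 CPM. Replicate 3 differed from the other replicates in both genotypes. All 12 genes meet the rule without it too, but this was fixed beforehand, because leaving out a library can only add genes.

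**Figure D1:**
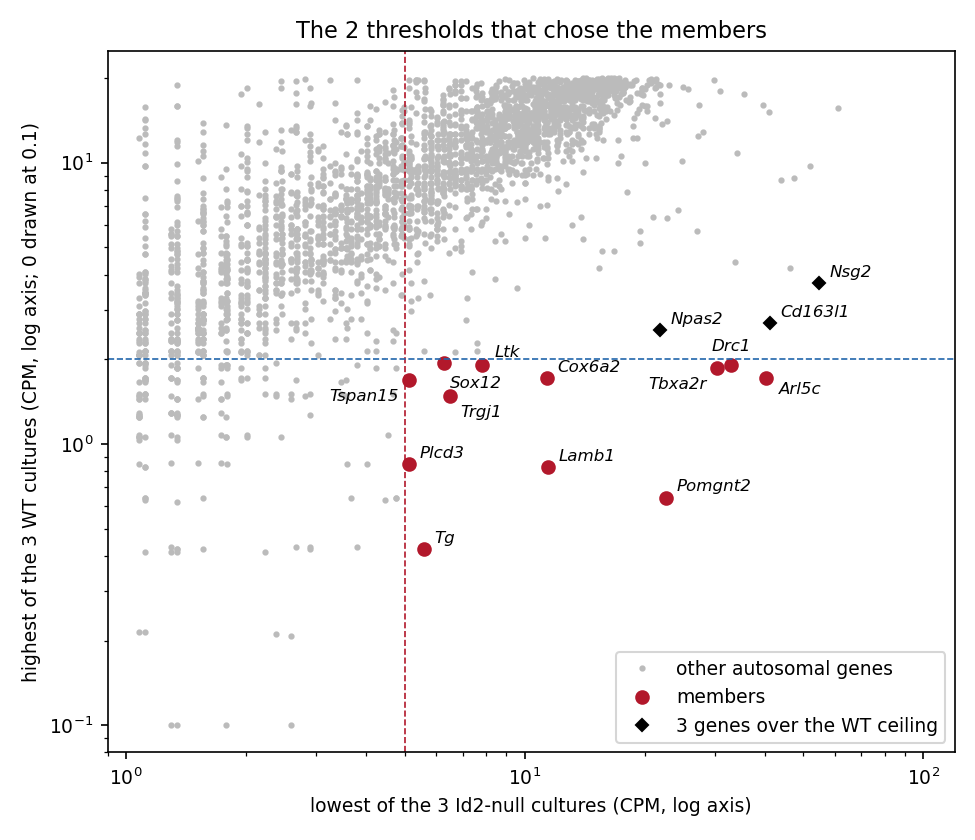
Each point is an autosomal gene, placed by its lowest CPM among the 3 Id2-null cultures (horizontal, log axis) and its highest CPM among the 3 WT cultures (vertical, log axis). Drawn are the 2941 genes at 1 CPM or more in every Id2-null culture and under 20 CPM in every WT culture, without the genes left out by name, and the dashed lines mark 5 CPM and 2 CPM. The 12 members fill the lower right, with Pomgnt2 and Tg far below the WT ceiling, and Nsg2, Cd163l1 and Npas2 lie to the right of the floor but above the ceiling.

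The thresholds cut through a continuous range. Nearest inside the WT ceiling was Sox12, at up to 1.93 CPM in a WT culture, followed by Ltk and Drc1 at up to 1.90 CPM each. Just above the ceiling lay Ticam2, Arvcf, Garnl3, Tbc1d4 and Npas2, whose highest WT cultures were between 2.11 and 2.54 CPM. Nearest inside the Id2-null floor were Tspan15 and Plcd3, each with 5.13 CPM in replicate 3. Just under the floor lay Ifit1bl1, Zdhhc14 and Airn with 4.75 CPM in replicate 2, Trgj4 with 4.69 CPM in replicate 3 and 1700048O20Rik with 4.54 CPM in replicate 2. Without Id2-null replicate 3 the same thresholds would take 21 genes, with all 12 members necessarily among them. Of the genes silent in WT, 54 had at least 1 Id2-null library at 5 CPM or more.

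Nsg2, which encodes a small endosomal membrane protein best known from neurons, was named as a marker of this group but did not meet the rule. It had 80.4, 54.9 and 75.4 CPM in the Id2-null cultures, against 1.29, 2.96 and 3.73 CPM in the WT cultures. The genotypes did not overlap, but 2 of the 3 WT values lay above the 2 CPM ceiling, so Nsg2 is described beside the 12 members and not counted among them. In the sorted cells it stood at 51.1 CPM in Immature cells, 7.84 CPM in M1 cells and 6.44 CPM in M2 cells. Cd163l1, a scavenger receptor gene known from gamma delta T cells, also missed the ceiling through 1 library, with 82.7, 41.3 and 61.6 CPM in the Id2-null cultures and 1.93, 1.48 and 2.69 CPM in the WT cultures. Npas2, a partner of the clock protein BMAL1, missed it likewise, with 42.9, 25.1 and 21.9 CPM in the Id2-null cultures and 1.29, 2.54 and 0.414 CPM in the WT cultures.

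Because these values chose the members, the difference between Id2-null and WT cultures is described here with no test. In bulk RNA a gene expressed at a low level in every cell and one expressed highly in a few cells cannot be told apart, and neither can fewer cells and less RNA per cell. The members' means ran from 6.03 to 58.7 CPM in the Id2-null cultures (median 14.4 CPM) and from 0.213 to 1.54 CPM in the WT cultures (median 1.09 CPM). The ratio of summed counts scaled by library totals, Id2-null over WT, ran from 4.83 for Sox12 to 64.2 for Pomgnt2. Together the 12 genes made up 319.4, 264.9 and 209 CPM in the Id2-null cultures, against 10.5, 13.7 and 10.4 CPM in the WT cultures. Corrected for gene length, as TPM (counts per base of gene length, scaled to the same total in each library), the mean level in the Id2-null cultures was 75.5 TPM for Arl5c, 56.9 TPM for Cox6a2, 48.9 TPM for Tbxa2r, 36.5 TPM for Drc1 and 23.1 TPM for Pomgnt2. The other 6 protein-coding members lay between 7.39 TPM for Lamb1 and 1.44 TPM for Tg.

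**Figure D2:**
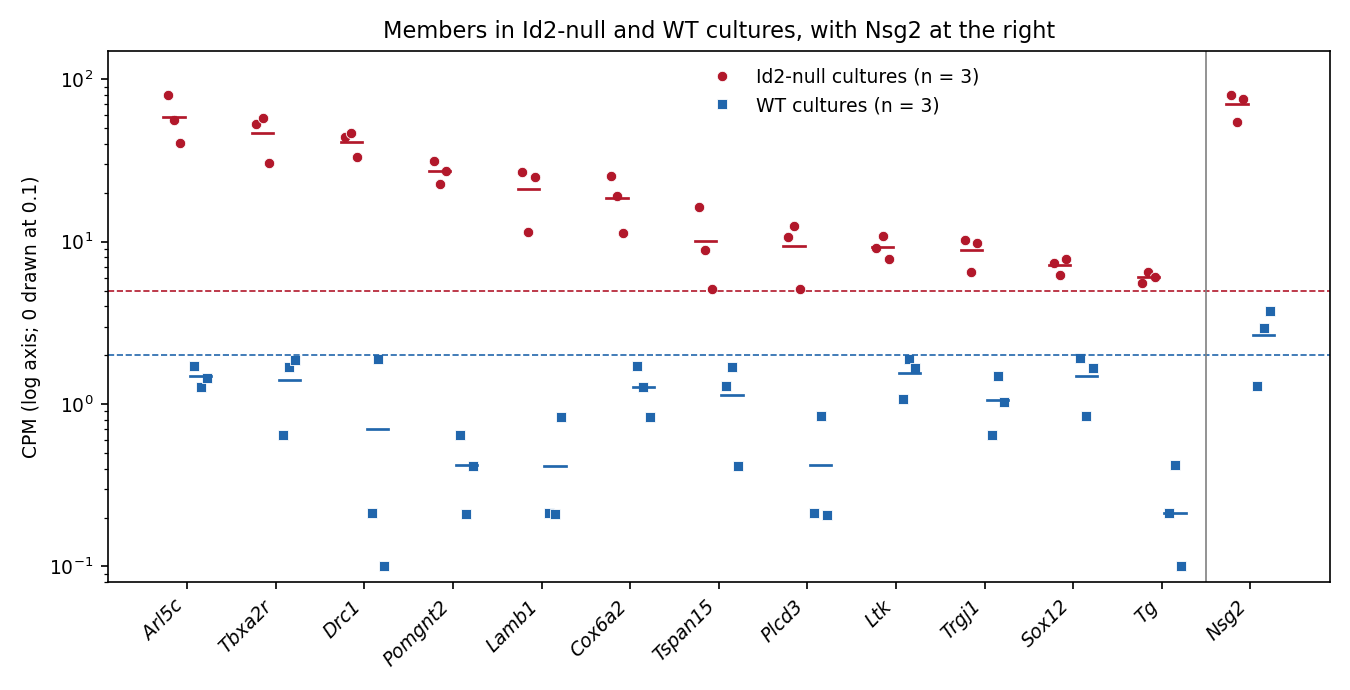
Points are the CPM (log axis) of each member in the 3 Id2-null cultures (circles) and the 3 WT cultures (squares), short lines are the means, and dashed lines mark the 5 CPM floor and the 2 CPM ceiling. A count of 0 is drawn at 0.1. The members run from Arl5c at a mean of 58.7 CPM to Tg at 6.03 CPM in the Id2-null cultures, and Nsg2, at the right, has WT values on both sides of the ceiling.

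Arl5c, a gene of membrane traffic, had the highest level per length of the protein-coding members. It encodes a small GTPase of the ARF-like family, whose better-studied relatives Arl5a and Arl5b act at the Golgi. Arl5c (chromosome 11, positions 97989575 to 97996285 in GRCm38) had 79.5, 56.2 and 40.4 CPM in the Id2-null cultures, against 1.72, 1.27 and 1.45 CPM in the WT cultures. Replicate 1 was highest and replicate 3 lowest among the Id2-null cultures, and the lowest of them was 23.5 times the highest WT culture. The summed counts of 797 in Id2-null and 21 in WT gave a ratio of 39.7 (exact 95% interval 25.8 to 64.5, counting error only). Arl5c also had the highest level of the members in fresh WT cells, with 49.7 CPM in Immature cells (exact Poisson 95% interval 43.1 to 56.9), 52.0 CPM in M1 cells (45.5 to 59.1) and 27.8 CPM in M2 cells (23.1 to 33.1). The Immature and M1 values fell inside the range of the Id2-null cultures, the M2 value was under all 3 of them, and all 3 sorted values were far above the WT cultures.

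Pomgnt2, which adds N-acetylglucosamine to O-linked mannose on alpha-dystroglycan in the endoplasmic reticulum, was near 0 in fresh cells. In the Id2-null cultures Pomgnt2 (chromosome 9, positions 121981606 to 121996053) had 31.5, 22.7 and 27.2 CPM, and in the WT cultures 0.644, 0.211 and 0.414 CPM. The 3 Id2-null values were close together, and the 6 WT counts in total against 368 in Id2-null gave the largest ratio of the set, 64.2 (29.2 to 176.0). Its level was 0.242 CPM in Immature cells, 0.224 CPM in M1 cells and 0.444 CPM in M2 cells, each from 1 or 2 counts. Pomgnt2 was thus at the level of the WT cultures in all 3 sorted libraries.

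The members that act in signalling at the cell surface were Tbxa2r, Ltk, Tspan15 and Plcd3. Tbxa2r encodes the receptor for thromboxane A2, a G protein-coupled receptor best known from platelets and smooth muscle. Tbxa2r (chromosome 10, positions 81328268 to 81335174) had 52.7, 57.5 and 30.3 CPM in the Id2-null cultures, against 0.644, 1.69 and 1.86 CPM in the WT cultures. Id2-null replicate 3 was the lowest of its group and still 16.3 times the highest WT culture. In the sorted cells Tbxa2r stood at 8.96 CPM in Immature cells (6.31 to 12.4), 6.05 CPM in M1 cells (3.99 to 8.80) and 1.33 CPM in M2 cells (0.489 to 2.90). It was 0.149 times as high in M2 as in Immature (0.0513 to 0.356), and all 3 sorted values were below every Id2-null culture.

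Ltk encodes leukocyte receptor tyrosine kinase, a relative of ALK. Ltk (chromosome 2, positions 119751326 to 119760431) had 9.16, 10.8 and 7.81 CPM in the Id2-null cultures, against 1.07, 1.90 and 1.66 CPM in the WT cultures, a ratio of 5.99 (3.79 to 9.90). The genotypes were separate in every library. Ltk had 1.45 CPM in Immature cells, 2.46 CPM in M1 cells and 0.667 CPM in M2 cells, from 6, 11 and 3 counts, so that the sorted values lay within the WT cultures or close to them on either side.

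Tspan15, a tetraspanin that travels with the membrane protease ADAM10 (chromosome 10, positions 62185396 to 62231276), had 16.3, 8.86 and 5.13 CPM in the Id2-null cultures, against 1.29, 1.69 and 0.414 CPM in the WT cultures. It had the widest spread of all members among the Id2-null cultures, with a coefficient of variation of 56.4%. Plcd3, a phospholipase C that cleaves the membrane lipid phosphatidylinositol bisphosphate (chromosome 11, positions 103070296 to 103101710), had 10.7, 12.5 and 5.13 CPM in the Id2-null cultures, against 0.215, 0.846 and 0.207 CPM in the WT cultures. Both reached the floor by a narrow margin in replicate 3, and both dropped below it when libraries were scaled by TMM (the trimmed mean of M values). In the sorted libraries Tspan15 had 1.21 CPM in Immature cells, 2.91 CPM in M1 cells and 2.44 CPM in M2 cells, and Plcd3 had 1.70 CPM in Immature cells, 1.12 CPM in M1 cells and 0 counts in M2 cells, which allows up to 0.667 CPM.

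Lamb1 and Tg encode secreted proteins. Lamb1, the laminin beta 1 chain of basement membranes (chromosome 12, positions 31265146 to 31329644), had 26.8, 11.5 and 25 CPM in the Id2-null cultures, against 0.215, 0.211 and 0.828 CPM in the WT cultures. Replicate 2 was the low one here, and the ratio of summed counts was 49.7 (22.6 to 136.6). Among the sorted libraries Lamb1 was highest in M2, with 13 counts or 2.89 CPM, against 3 counts in M1 and 1 count in Immature. Tg, the thyroid hormone precursor thyroglobulin (chromosome 15, positions 66670754 to 66850721), had 5.58, 6.48 and 6.02 CPM in the Id2-null cultures, against 0.215, 0.423 and 0 CPM in the WT cultures. Tg had the lowest level per length of the protein-coding members, the tightest Id2-null values (coefficient of variation 7.44%), and 0.667 to 0.896 CPM in the sorted libraries.

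Cox6a2 and Drc1 are known from mitochondria and motile cilia. Cox6a2 encodes the muscle form of a cytochrome c oxidase subunit and lies on chromosome 7, positions 128205435 to 128206366. It had 25.5, 19.2 and 11.4 CPM in the Id2-null cultures, against 1.72, 1.27 and 0.828 CPM in the WT cultures, in both genotypes with replicate 1 highest and replicate 3 lowest. In the sorted cells Cox6a2 stood at 9.21 CPM in Immature cells (6.51 to 12.6), 5.15 CPM in M1 cells (3.27 to 7.73) and 1.78 CPM in M2 cells (0.767 to 3.50). The M2 library was 0.193 times as high as Immature (0.0778 to 0.420) and close to the highest WT culture.

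Drc1 encodes a subunit of the nexin-dynein regulatory complex, which holds neighbouring microtubule doublets together in beating cilia. Drc1 (chromosome 5, positions 30281335 to 30366695) had 44.0, 46.5 and 33.0 CPM in the Id2-null cultures, against 0.215, 1.90 and 0 CPM in the WT cultures. The WT counts were 1, 9 and 0, so that WT replicate 2 held nearly all of the WT signal, while the Id2-null cultures were all over 30 CPM. Drc1 had 0.484 CPM in Immature cells, 0.448 CPM in M1 cells and 0.222 CPM in M2 cells, from 2, 2 and 1 counts.

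Sox12 encodes a transcription factor of the SoxC group, the relatives of Sox4 and Sox11. Sox12 (chromosome 2, positions 152393611 to 152398046) had 7.37, 6.27 and 7.81 CPM in the Id2-null cultures, against 1.93, 0.846 and 1.66 CPM in the WT cultures, the smallest ratio of the set at 4.83 (2.99 to 8.16). Sox12 was the member with replicate 3 highest among the Id2-null cultures. It had 2.42 CPM in Immature cells, 0.448 CPM in M1 cells and 1.78 CPM in M2 cells, with the Immature value above and the M1 value below all WT cultures.

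Across the Id2-null cultures the members were most often lowest in replicate 3. It was lowest for 7 of the 12 members (58.3%) and highest for 1 (8.33%). Among the 7187 autosomal genes at a mean of 5 to 100 CPM in the Id2-null cultures, it was lowest for 29.5% and highest for 52.2%. The median coefficient of variation was 27.2% over the members, with a range of 7.44 to 56.4%, and 16.4% over those genes. The 2 sets were not matched for level, and counting error weighs more at low counts, so these medians cannot be compared directly. A quasi-likelihood model over all genes in edgeR, with a Benjamini-Hochberg adjusted p under 0.05 as threshold, called 210 of 11022 tested genes higher in Id2-null cultures, which is 1.91%, and 167 lower, which is 1.52%. With the replicate number as a block it called 452 higher and 383 lower, and with single libraries left out 67 (without WT replicate 1) to 387 (without Id2-null replicate 3) higher and 54 to 275 lower, in the same order. All 12 members passed the filter on low counts and were among the 210, also with the block, but the rule had chosen them on the same libraries, so this count is no finding about them.

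In cells taken fresh from the spleen most members were under 2 CPM. At 5 CPM or more were 3 of 12 members in Immature (Arl5c, Cox6a2 and Tbxa2r), the same 3 in M1 and Arl5c alone in M2. Among the 13151 genes silent in the WT cultures, 1.16% reached 5 CPM in Immature, 1.29% in M1 and 2.39% in M2. Among the 9084 autosomal genes at 5 CPM or more in all Id2-null cultures, 95.3% did so in Immature, 93.1% in M1 and 92.4% in M2. Under 2 CPM were 8 members in Immature, 7 in M1 and 9 in M2, and 5 members (Drc1, Pomgnt2, Plcd3, Trgj1 and Tg) were under 2 CPM in all 3. Arl5c excepted, every member was lower in each of the 3 sorted libraries than in every Id2-null culture. The rule chose the members as high in these same Id2-null cultures, and the share over all genes was not counted, so this is a description only. The sorted cells were not cultured, so the presence of Id2 and the culture in IL-15 cannot be told apart in that comparison.

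**Figure D3:**
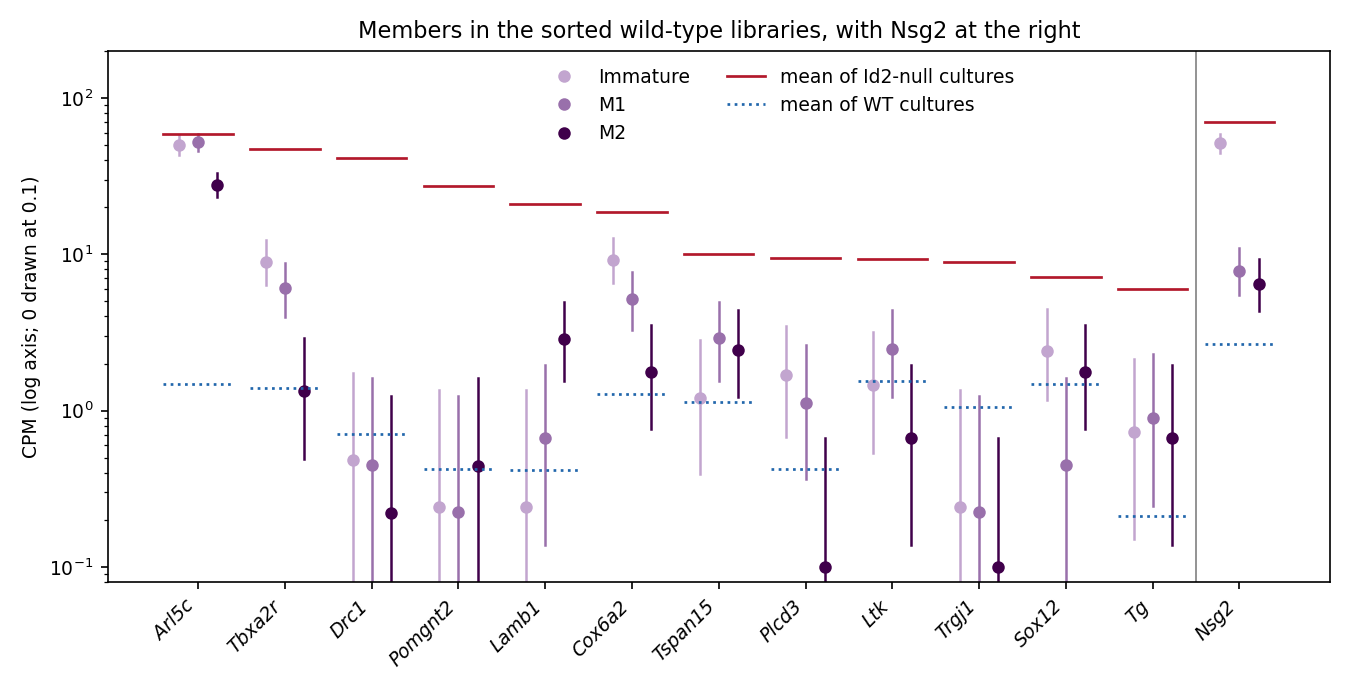
Points are the CPM (log axis) of each member in the Immature, M1 and M2 libraries, 1 library each, with exact Poisson 95% intervals as vertical lines, and horizontal lines are the means of the Id2-null cultures (solid) and the WT cultures (dotted). A count of 0 is drawn at 0.1 with a line up to 3 counts. Arl5c lies near its Id2-null mean in Immature and M1, Tbxa2r, Cox6a2 and Nsg2 are highest in Immature among the sorted libraries, and most remaining members lie near the WT mean.

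The sum over the members was 76.5 CPM in Immature cells, 72.6 CPM in M1 cells and 40.0 CPM in M2 cells, of which Arl5c took the larger part in each. Of the 12 members 6 were highest in Immature, 4 in M1 and 2 in M2, and 8 were lowest in M2, most of them from few counts. These tallies were not made over all genes. In each pair of these libraries only 3 members (Arl5c, Tbxa2r and Cox6a2) reached 5 CPM in either library and could be called different. Past a 2-fold difference with at least 5 CPM in the higher library, 0 of these 3 differed between M1 and Immature. Of the 10012 genes at that level 1.71% were higher in M1 and 4.4% were lower. Tbxa2r and Cox6a2 were lower in M2 than in M1, at 0.220 times (0.0744 to 0.545) and 0.345 times (0.133 to 0.799) its level. Over all 9953 genes at that level 1.89% were lower and 3.75% higher in M2 than in M1. Both genes were also lower in M2 than in Immature, where 6.85% of 10207 genes were lower and 5.65% higher. Arl5c fell short of 2-fold, at 0.534 times in M2 over M1 (0.426 to 0.667). Summed T cell markers also differed between these libraries, with a sum of 784.3 CPM in Immature, against 308.8 CPM (M1) and 303.3 CPM (M2), and their part in the members' levels was not tested. With 1 library per population these are differences between libraries with no replicate check.

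Markers of myeloid cells and of erythroid cells and platelets were close to 0 in the cultures and higher in the sorted libraries. The 10 myeloid markers summed to 0.669 to 0.864 CPM in the Id2-null cultures and 2.15 to 3.17 CPM in the WT cultures, but to 187 CPM in Immature cells, 199.4 CPM in M1 cells and 849 CPM in M2 cells, with Lyz2 and S100a9 at 0 in all cultures. The 8 erythroid and platelet markers summed to 0.648 to 2.68 CPM in the Id2-null cultures, 0.414 to 1.69 CPM in the WT cultures and 16.7 to 39.6 CPM in the sorted libraries. Mast cell and basophil markers were mixed. Prss34 was at 0 in all cultures and at 62.5 to 260.4 CPM in the sorted libraries, and Fcer1a and Ms4a2 were also at 0 in all cultures. Mcpt8 was at 2.45 to 7.37 CPM in the Id2-null cultures, 11.2 to 28.1 CPM in the WT cultures and 24.7 to 130.6 CPM in the sorted libraries. Kit was at 244 to 692 CPM in the cultures and 50.9 to 302.3 CPM in the sorted libraries. B cell markers summed to 36.8 to 49.8 CPM in the Id2-null and 8.25 to 19.3 CPM in the WT cultures, nearly all of it from Bank1, while Ms4a1 and Pax5 were at 0 there. Bank1, the 1 tested, was called higher in Id2-null cultures (log2 fold change 1.91, edgeR adjusted p = 0.0431), also by DESeq2 and limma voom. Its call was lost without any 1 library except Id2-null replicate 3 and WT replicate 1 (0.0965 to 0.15). In Immature, M1 and M2 the B cell markers summed to 65.2, 45.9 and 120.2 CPM. The 10 markers of plasmacytoid dendritic cells, a list that holds the member Cox6a2, summed to 497.3 to 676.6 CPM in the Id2-null and 491.7 to 671.5 CPM in the WT cultures, most of it from Irf8, Tcf4 and Runx2. Siglech, Ccr9, Ly6d and Klk1 of that list were at 0 in all cultures, and 0 of the 4 tested outside the rule were called by edgeR. At an unadjusted p under 0.05 the test gave 0 of these higher and 1 lower, and DESeq2 and limma voom called 0. T cell markers summed to 436.9 to 555.5 CPM in the Id2-null cultures and 215.3 to 390.9 CPM in the WT cultures, with Cd4 at 0. Of the 6 tested 0 were called by edgeR. At an unadjusted p under 0.05 edgeR gave 3 higher and 1 lower, DESeq2 and limma voom each called 1 higher and 0 lower, and the replicate block called 2 higher and 1 lower. Cd3d, a subunit of the T cell receptor complex, had 95.6, 167.4 and 95.9 CPM in the Id2-null cultures, against 19.8, 51.6 and 14.7 CPM in the WT cultures (log2 fold change 2.06, edgeR adjusted p = 0.164). It was called in DESeq2, in limma voom, with the replicate block and without WT replicate 2, with adjusted p between 0.00142 and 0.0454. Cd3g, another subunit, had 110.4, 138.1 and 87.5 CPM in the Id2-null cultures, against 18.5, 73.0 and 21.1 CPM in the WT cultures (log2 fold change 1.57, edgeR adjusted p = 0.335, and 0.0066 without WT replicate 2). The genotypes did not overlap for either gene. The part of other cells in the members' levels was not tested.

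The E boxes near the start sites of the members are shown because E proteins, the partners of Id2, bind such sequences. RefSeq start sites gave 9 promoter windows (GRCm38.p6, 250 bases before to 50 after the start) for 8 members, 2 of them for Tbxa2r. Arl5c, Cox6a2, Tg and Trgj1 are not among them. The window of Ltk, on the minus strand, lies inside the gene (positions 119751326 to 119760431) and not at its upstream end. Capitals mark each match to CANNTG, the general E box, which reads the same on both strands.
Drc1, chr5:30281143-30281442, plus strand: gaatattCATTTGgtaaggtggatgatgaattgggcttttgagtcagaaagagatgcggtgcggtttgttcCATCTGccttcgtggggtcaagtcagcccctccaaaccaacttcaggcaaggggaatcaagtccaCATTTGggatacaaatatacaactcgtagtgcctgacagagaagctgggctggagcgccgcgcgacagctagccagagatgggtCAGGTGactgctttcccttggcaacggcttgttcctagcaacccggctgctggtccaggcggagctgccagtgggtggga
Pomgnt2, chr9:121995977-121996276, minus strand: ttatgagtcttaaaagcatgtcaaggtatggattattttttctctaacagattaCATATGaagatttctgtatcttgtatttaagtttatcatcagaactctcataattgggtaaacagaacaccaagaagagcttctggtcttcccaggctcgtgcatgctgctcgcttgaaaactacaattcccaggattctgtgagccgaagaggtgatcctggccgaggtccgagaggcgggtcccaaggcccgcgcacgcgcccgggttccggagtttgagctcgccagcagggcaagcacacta
Ltk, chr2:119758476-119758775, minus strand: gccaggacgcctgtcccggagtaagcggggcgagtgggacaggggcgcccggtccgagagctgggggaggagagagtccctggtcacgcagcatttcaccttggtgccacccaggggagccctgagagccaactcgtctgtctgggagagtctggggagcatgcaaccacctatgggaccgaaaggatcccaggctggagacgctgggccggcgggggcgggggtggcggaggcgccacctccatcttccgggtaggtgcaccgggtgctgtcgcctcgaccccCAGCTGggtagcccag
Nsg2, chr11:32000169-32000468, plus strand: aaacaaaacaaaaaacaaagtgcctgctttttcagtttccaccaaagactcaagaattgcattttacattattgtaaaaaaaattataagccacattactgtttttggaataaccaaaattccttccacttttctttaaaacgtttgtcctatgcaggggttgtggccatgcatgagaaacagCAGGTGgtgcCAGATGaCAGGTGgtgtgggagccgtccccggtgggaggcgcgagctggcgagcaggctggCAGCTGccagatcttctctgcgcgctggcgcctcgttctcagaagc

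Drc1 has 4 matches in its window, Pomgnt2 1, Ltk 1 and the first of the windows of Nsg2, which is no member, 4. At least 1 CANNTG was found in 8 of the 9 windows of members (88.9%), and in 72.3% of all 32851 promoter windows of that length. Plcd3 had no match. CAGCTG, a form of CANNTG, was found in 1 of the 9 windows (11.1%, Ltk), against 16.3% of all. CACCTG, with its reverse complement CAGGTG, was found in 2 (22.2%, Drc1 and Tspan15), against 20.2% of all, and CATCTG, with its reverse complement CAGATG, in 2 (22.2%, Drc1 and a window of Tbxa2r), against 17.2% of all. The windows of members had a median GC content of 62.3%, against 52.7% for all windows. A match describes the letters and not a bound site, and distant elements were not searched.

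Trgj1, a joining segment of the T cell receptor gamma locus, was the member outside the protein-coding genes. NK cells do not assemble a T cell receptor, but transcripts of unrearranged receptor genes are known from NK cells. Trgj1 had 10.3, 6.48 and 9.82 CPM in the Id2-null cultures, against 0.644, 1.48 and 1.04 CPM in the WT cultures, a ratio of 8.37 (4.88 to 15.4). It had 1 count in Immature, 1 in M1 and 0 in M2, which allows up to 0.667 CPM there. The locus holds near copies of this segment, shown here from GENCODE M21 (GRCm38), with capitals at the letters that differ from Trgj1.
Trgj1, chr13:19210343-19210402, plus strand: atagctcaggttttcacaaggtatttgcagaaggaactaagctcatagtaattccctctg
Trgj2, chr13:19311245-19311304, minus strand: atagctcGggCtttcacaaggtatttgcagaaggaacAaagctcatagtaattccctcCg
Trgj3, chr13:19257117-19257176, plus strand: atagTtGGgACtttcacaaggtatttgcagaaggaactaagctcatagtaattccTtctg

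Trgj2 differs from Trgj1 at 4 of the 60 bases (93.3% identity) and Trgj3 at 6 (90.0%). How the authors' counting treated reads that match several copies was not stated in the labels or files used here, so the split between them is uncertain. Trgj3 had 0 counts in all 9 libraries, and Trgj2 had at most 0.892 CPM in an Id2-null culture and 1.69 CPM in a WT culture. Trgj4, which differs in length, missed the floor in 1 library, with 5.14, 8.86 and 4.69 CPM in the Id2-null cultures, against 1.5, 1.27 and 0.621 CPM in the WT cultures.

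Trgc1, the constant region beside Trgj1, had 72.8, 59.6 and 52.7 CPM in the Id2-null cultures, against 14.6, 33.8 and 14.3 CPM in the WT cultures. The genotypes did not overlap, but the test missed the threshold (log2 fold change 1.56, edgeR adjusted p = 0.0878, and 0.0599 with the replicate block). It was called in DESeq2, in limma voom and without WT replicate 2, with adjusted p between 0.000332 and 0.0411. Trgc2 did not share the direction, with 6.92, 16.6 and 5.13 CPM in the Id2-null cultures, against 9.88, 40.8 and 9.73 CPM in the WT cultures. Of the 15 genes of the locus in the files, 14 had a count in a culture, 5 were higher in every Id2-null than in every WT culture and 0 were lower in every one. The 5 include Trgj1, which the rule chose for this pattern, and Trgv6, which had 1, 1 and 4 counts in the Id2-null cultures and 0, 1 and 1 in the WT cultures. Over all 15048 autosomal genes with a count, 8.51% were higher and 8.67% lower in every culture in this way. WT replicate 2 was the highest WT culture for Trgc1, Trgc2 and Trgc4 and also for the T cell gene Cd3e, at 83.7 CPM, against 9.61, 25.1 and 11.2 CPM in the Id2-null cultures and 17.4 and 19.5 CPM in the other WT cultures (log2 fold change -1.40, edgeR adjusted p = 0.541, and 0.0159 with the replicate block). It was highest among the WT cultures for Cd3d and Cd3g too, the subunit genes described above whose fold changes have the opposite sign. Among the sorted libraries Immature was highest for Trgc1 at 26.9 CPM, Trgc4 at 80.2 CPM and Cd3e at 103.2 CPM, with Trgc1 at 2.02 CPM in M1 and 2.0 CPM in M2. The part of T cells in these values was not tested. Of the markers of gamma delta T cells, Sox13, Il17a and Blk were at 0 in all 6 cultures, and 3 were tested. Cd163l1 was called higher, Maf fell to 17.4 ± 4.13 CPM in the Id2-null cultures, against 48.3 ± 13.5 CPM in the WT cultures (SD, n = 3 each; log2 fold change -1.48, edgeR adjusted p = 0.0155, and 0.0559 to 0.088 without any 1 library except Id2-null replicate 3 and WT replicate 2), and Etv5 was not called (log2 fold change -0.72, edgeR adjusted p = 0.62).

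**Figure D4:**
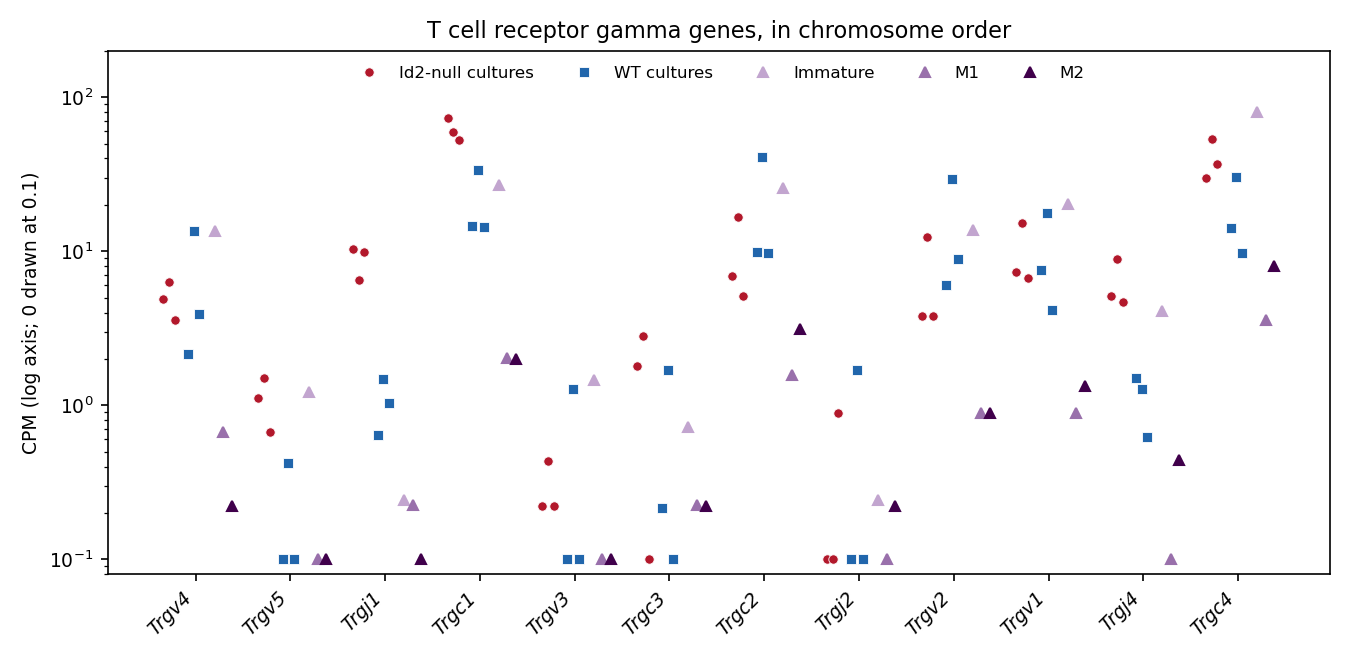
Points are the CPM (log axis) of the T cell receptor gamma genes that reach 1 CPM in a culture, in chromosome order, in the Id2-null cultures (circles), the WT cultures (squares) and the sorted libraries (triangles), with a count of 0 drawn at 0.1. Trgj1, Trgc1 and Trgj4 show Id2-null values above all WT values, while Trgc2 and Trgv2 do not, and the Immature library is the highest sorted one for most genes.

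Some genes beside the members differed too. Within 50 kb of the 12 members the files held 49 other genes, of which 43 had a count in a culture and 29 were tested. The edgeR test called 3 of them higher (10.3%, against 1.91% of all tested genes) and 0 lower (against 1.52%), with 2 lower at an unadjusted p under 0.05, and DESeq2 and limma voom also called 0 lower. Sla, an adaptor of antigen receptor signalling that lies inside Tg on the opposite strand, rose to 143 ± 26.1 CPM in Id2-null cultures, against 69.4 ± 11.7 CPM in WT cultures (SD, n = 3 each; log2 fold change 1.05, edgeR adjusted p = 0.0290). Itgad, an integrin alpha chain whose exons share 70 bases with Cox6a2 on the opposite strand, rose to 34.0 ± 11.8 CPM in Id2-null cultures, against 9.81 ± 3.50 CPM in WT cultures (SD, n = 3 each; log2 fold change 1.80, edgeR adjusted p = 0.0375). The long non-coding RNA 1700048O20Rik, 34590 bases from Pomgnt2, rose to 6.87 ± 3.53 CPM in Id2-null cultures, against 0.914 ± 0.243 CPM in WT cultures (SD, n = 3 each; log2 fold change 2.86, edgeR adjusted p = 0.0142). The calls of Sla and Itgad were lost when any library except Id2-null replicate 3 was left out, at edgeR adjusted p between 0.0757 and 0.121 for Sla, and for Itgad, also lost in limma voom, between 0.0646 and 0.168. The call of 1700048O20Rik was lost when any WT library was left out, at 0.053 to 0.0811. In Immature, M1 and M2, which were WT cells without culture, Sla had 526.6, 507.3 and 325.1 CPM, above every culture. Itgad had 48.9, 39.0 and 67.3 CPM there and 1700048O20Rik 0.969, 1.34 and 0.889 CPM. The strand setting of the counting was not stated in the labels or files used here, so reads in shared exons cannot be assigned to a strand. The annotation shows shared exonic bases also between Tg and the antisense gene Gm17140 (112 bases) and between Tspan15 and the microRNA gene Mir7662 (39 bases).

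Counting every neighbour with a count, 11 (25.6%) were higher in all Id2-null than in all WT cultures and 2 (4.65%) were lower. Over all autosomal genes with a count the shares were 8.51% and 8.67%. Of the 12 members 8 had a neighbour higher in this way. Members had unequal numbers of neighbours, and no share of other genes with a higher neighbour was counted, so the 8 of 12 is a description only. The 11 are not independent, because Trgc1, Trgv5 and Trgv6 lie in the locus of Trgj1. Besides the genes already named, the 11 were Cacnb1 by Arl5c, Pip5k1c and Gipc3 by Tbxa2r, Otof by Drc1, Dcakd by Plcd3, and Trgv5 and Trgv6 by Trgj1, most of them at low levels, with Trgv6 at 1 count in 2 of the Id2-null cultures and in 2 of the WT cultures. Otof, which lies 371 bases from Drc1, had 2.01, 2.59 and 0.669 CPM in the Id2-null cultures and 0 counts in all 3 WT cultures. Pip5k1c, a lipid kinase gene, had 136, 141 and 170 CPM in the Id2-null cultures, against 86.7, 98.5 and 126 CPM in the WT cultures (edgeR adjusted p = 0.114). The replicate block took it past the threshold (edgeR adjusted p = 0.0152).

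Most of the relatives and pathway partners of the members were not called. Their lists hold 115 genes outside the rule, in 10 families and pathways, and were written with earlier results of these data known, so that Nsg2, Npas2, Adgrl2 and Cd163l1 were in them because they had stood out before. Of the 60 tested, 7 were higher (11.7%) and 4 lower (6.67%), against 1.91% higher and 1.52% lower over all tested genes, and the median log2 fold change was -0.02, against 0.01 over all tested genes. The 4 genes just named are 4 of the 7, and the deleted gene Id2 is 1 of the 4 lower ones.

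Of the 11 tested genes of O-mannosyl glycan synthesis besides Pomgnt2, edgeR called 0, as did DESeq2 and limma voom, and 0 had an unadjusted p under 0.05. Pomgnt1, which acts beside Pomgnt2 on the same sugar, had 20.3, 20.7 and 34.6 CPM in the Id2-null cultures, against 23.6, 23.3 and 30.8 CPM in the WT cultures, and Dag1, which encodes the dystroglycan they modify, had 70.1, 68.3 and 35.7 CPM in the Id2-null cultures, against 59.7, 67.5 and 43.2 CPM in the WT cultures. Both were present in the cultures of either genotype, and their genotypes overlapped. Of the 15 tested ARF-like genes besides Arl5c, Arl4c rose to 273.8 ± 50.1 CPM in Id2-null cultures, against 143.2 ± 22.8 CPM in WT cultures (SD, n = 3 each; log2 fold change 0.94, edgeR adjusted p = 0.0372). Arl15 fell to 16.9 ± 1.12 CPM in Id2-null cultures, against 29.1 ± 3.12 CPM in WT cultures (SD, n = 3 each; log2 fold change -0.79, edgeR adjusted p = 0.0341). Both calls were lost when any library except Id2-null replicate 3 was left out, at edgeR adjusted p of 0.0753 to 0.173 for Arl15 and, with limma voom included, of 0.053 to 0.126 for Arl4c. Arl5a, the closest relative expressed well, had 104, 101 and 90.6 CPM in the Id2-null cultures, against 166, 126 and 104 CPM in the WT cultures, and was not called (edgeR adjusted p = 0.350, and 0.0285 without replicate 3 of both genotypes).

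In the prostanoid list 5 genes besides Tbxa2r were tested. The prostaglandin E2 receptor genes Ptger3 and Ptger4 fell in Id2-null cultures while Tbxa2r was higher. Ptger3 had 2.01, 2.16 and 2.45 CPM in the Id2-null cultures, against 12, 8.25 and 8.69 CPM in the WT cultures (log2 fold change -2.11, edgeR adjusted p = 0.00782, and 0.0547 without WT replicate 1). Ptger4 had 32.6, 37.2 and 39.9 CPM in the Id2-null cultures, against 68.7, 54.1 and 93.8 CPM in the WT cultures (log2 fold change -0.97, edgeR adjusted p = 0.0284, and 0.0533 to 0.134 in limma voom and without any 1 library except Id2-null replicate 3 and WT replicate 2). The genotypes did not overlap for either gene. Tbxas1, the enzyme that makes thromboxane A2, was at 0 counts in all 6 cultures, and had 3.63 CPM in Immature cells, 2.02 CPM in M1 cells and 7.11 CPM in M2 cells.

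Of the genes of the ciliary axoneme besides Drc1, Gas8 and Dnah8 were tested and 0 were called by edgeR, DESeq2 or limma voom, or had an unadjusted p under 0.05. Gas8, a partner of Drc1 in the same complex, had 7.59, 7.78 and 7.81 CPM in the Id2-null cultures, against 7.08, 9.52 and 7.87 CPM in the WT cultures. Drc7 and Ccdc65, also of that complex, were at 0 in all cultures. Drc3 and Iqcg of the same list were below the filter. Iqcg had 0.892 to 2.01 CPM in the Id2-null and 1.29 to 2.11 CPM in the WT cultures, and Drc3 up to 0.216 and 0.429 CPM. Foxj1, the factor that switches on motile cilia genes, was below the filter at 0.669 to 1.73 CPM in the Id2-null and up to 1.06 CPM in the WT cultures. Of the 12 tested clock genes Npas2 rose (log2 fold change 4.39, edgeR adjusted p = 0.00562, and 0.061 without WT replicate 1). Its closest relative Clock, which fills the same place beside BMAL1, had 27.2, 25.7 and 36.4 CPM in the Id2-null cultures, against 26.2, 24.5 and 26.1 CPM in the WT cultures, and was not called. Tef was not called (edgeR adjusted p = 0.143, and 0.0346 with the replicate block, the one of its alternative fits that called it). Npas2 had 1.21 CPM in Immature and 0 counts in M1 and M2.

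Adgrl2, which encodes the adhesion receptor latrophilin 2, rose to 55.6 ± 13.3 CPM in Id2-null cultures, against 4.08 ± 0.148 CPM in WT cultures (SD, n = 3 each; log2 fold change 3.77, edgeR adjusted p = 0.000197), and had 1.34 to 2.42 CPM in the sorted libraries. Cd163l1 rose by a log2 fold change of 4.91 (edgeR adjusted p = 0.000293) and had 7.51 CPM in Immature, 0 counts in M1 and 0.444 CPM in M2. Nsg2 rose by a log2 fold change of 4.71 (edgeR adjusted p = 0.000254). Its relatives Nsg1 and Caly were below the filter, with Nsg1 at 1.34 to 1.95 CPM in the Id2-null cultures and 1.29 to 1.69 CPM in the WT cultures.

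Of the E protein genes, Tcf12 rose to 269, 239 and 260 CPM in the Id2-null cultures, against 174, 174 and 170.5 CPM in the WT cultures (log2 fold change 0.57, edgeR adjusted p = 0.0265, and 0.0708 to 0.133 without any library except Id2-null replicate 3). Tcf3 was not called at 104 to 112 CPM in the Id2-null and 107 to 136 CPM in the WT cultures. Tcf4 was not called either (edgeR adjusted p = 0.248), but was lower with the replicate block (edgeR adjusted p = 0.031) and without replicate 3 of both genotypes (0.0488). Among genes of early T cells Tcf7, which encodes TCF-1, was the one called. Its level rose to 957 ± 102.2 CPM in Id2-null cultures, against 228 ± 76.3 CPM in WT cultures (SD, n = 3 each; log2 fold change 2.08, edgeR adjusted p = 0.00272). Tcf7 had 999 CPM in Immature cells, 511 CPM in M1 cells and 123 CPM in M2 cells. Ptcra and Rag1, which mark cells that are assembling a T cell receptor, were at 0 in all 9 libraries.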

How the data were processed

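Total RNA of spleen NK cells was sequenced in 9 libraries. The deposited files give, per the file headers, the raw count of each Entrez gene as a whole number and the length of that gene. Subread and featureCounts, the builds GRCm38 and mm10, and limma are named in the submitters' processing notes, while versions, annotation, strand setting and the handling of reads with several matches were not stated in the labels or files used here. Symbols and chromosomes were taken from RefSeq (GRCm38.p6), which matched 25275 of 27179 identifiers.

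CPM used the library's total of counts. Members and gene lists were chosen with earlier results of these data known, Nsg2, Arl5c, Tbxa2r, Drc1, Cd163l1, Npas2 and Adgrl2 among them. The genes to be named were Nsg2, Arl5c and Pomgnt2, all members, the genes nearest each threshold, and called genes of the lists. Genes singled out as neighbours, or as uncalled relatives of a member, were chosen after their values were seen. The genotypes were compared in cultures with edgeR 4.0.16 under R 4.3.3 (filterByExpr with a minimum count of 10, TMM scaling, robust quasi-likelihood fit with genotype alone), adjusted over 11022 genes, after a check on simulated counts. Alternatives were DESeq2 1.42.0, limma 3.58.1 with voom, library sizes alone, no filter, a replicate block, and leaving out libraries. Same-numbered cultures deviated together (correlations 0.357, 0.242 and 0.420 over 11084 genes, against -0.403 to 0.192 between different numbers). Replicates 1 and 2 set against each other gave 0.192 and 0.131, and the negative values all involved replicate 3. The block takes the number as a pairing, but these values show mainly that replicate 3 stood apart in both genotypes. The labels state no pairing, and the main fit leaves it out. A gene not called in the main fit can thus be called with the block, as Cd3d was (edgeR adjusted p = 0.164, and 0.00142 with the block). No 2 replicates agreed within sampling noise (chi-square per degree of freedom 4.85 to 27.0). Ratios of summed counts have exact conditional intervals, and single libraries exact Poisson 95% intervals. Intervals and the limit of 3 counts cover counting error alone, because reads that carry no molecular identifier may be copies of 1 molecule. Promoter windows of 300 bases and joining segments were read from RefSeq and GENCODE tables of GRCm38.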

Additional observations from a re-analysis of the deposited data

How the results depend on the processing

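The number of genes that met the rule moved with its thresholds and with the libraries used. A ceiling of 1 CPM left 4 of the 12 genes, a floor of 10 CPM left 6, and TMM-scaled CPM left 10, without Plcd3 and Tspan15. Leaving out single libraries gave 13 to 21 genes, and leaving out replicate 3 of both genotypes, an alternative chosen after seeing the data, gave 24. All 12 were kept each time by construction, because leaving out a library can only add genes. Over all genes the 210 higher and 167 lower calls became 316 and 264 in DESeq2, 452 and 383 with the replicate block, and 571 and 494 without replicate 3 of both genotypes. Leaving out single libraries gave 67 to 387 higher and 54 to 275 lower. Among pathway genes outside the rule the 7 higher calls ranged from 4 to 8 and the 4 lower calls from 1 to 5 with single libraries left out, and were 9 and 7 without replicate 3 of both genotypes. The block gave 8 and 5. The causes of these changes were not tested, and fits with libraries left out also had fewer libraries.

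In the sorted libraries a level of 10 CPM left 1 member each in Immature, M1 and M2, and a level of 2 CPM gave 4, 5 and 3. With a fold of 3, M2 was lower than M1 for 1 member in place of 2. With at least 10 CPM in the higher library 0 members were lower in M2 than in M1 or Immature, but only Arl5c reached that level. TMM scaling of the 9 libraries moved none of these counts. For the 12 members and 24 other named genes 360 alternative fits kept direction and side of the threshold, 57 lost the call, 15 gained it and 0 turned round. The members gave 132 of the 360 and 12 of the 57. The rule had chosen them on these same libraries, so their part is no finding about them. The depth of 4128414 to 4831831 counts means that a count of 0 allows up to 0.621 to 0.727 CPM, and for members with 1 to 3 counts in a sorted library differences between these libraries cannot be read.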

Other observations

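The reverse pattern, at 5 CPM or more in all 3 WT cultures and under 2 CPM in all 3 Id2-null cultures, was met by 13 autosomal genes. Those genes are not described here.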
